A study of Homo sapiens with 18 samples.

Results

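Transcripts of 29 genes of cholesterol synthesis and of its control by the sterol regulatory element binding proteins (SREBPs) were followed through normoxia and hypoxia in 3 human cell lines. The members are a list of gene symbols, all of which were found among the 23106 genes of the count files, and all passed the low-count filter in every comparison. Cholesterol is built from acetyl-CoA through mevalonate and squalene, and several of the steps after squalene consume molecular oxygen. SREBPs are made as membrane precursors that the escort protein SCAP carries from the endoplasmic reticulum to the Golgi apparatus, where proteolysis frees the active factor. When sterols are plentiful, INSIG proteins hold SCAP in the endoplasmic reticulum and the synthesis genes are transcribed less.

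RNA was sequenced from HKC-8 cells, a renal tubule line, from RCC4+VHL cells, a renal carcinoma line with the VHL tumour suppressor put back, and from HepG2 cells, a liver carcinoma line, all grown in DMEM with serum. Each line gave 3 normoxic and 3 hypoxic samples, 18 in all. For hypoxia the sample characteristics give 0.5% oxygen for 16 h in HKC-8 and HepG2 cells and 1.0% for 24 h in RCC4+VHL cells, whereas the titles of the HKC-8 samples give 0.1 for hypoxia and 21 for normoxia. The text of the study describes the same hypoxia for the RNA sequencing of every line, so the oxygen level and time in RCC4+VHL cells are uncertain. Nothing in the labels says that replicates came from separate cultures, so p-values measure only the spread between these samples, which may be technical.

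HKC-8 libraries held 75441764 to 97984260 counts and those of the other lines 40915980 to 51794355, so depth and cell line cannot be told apart where HKC-8 cells are compared with another line. RCC4+VHL and HepG2 libraries overlapped in depth. The labels state for the HKC-8 samples alone that each was split over a pair of sequencing lanes. At these depths 3 counts correspond to 0.0307 to 0.0776 CPM (counts scaled to a common library total), which covers counting error only. All 10 genes of a hypoxia check list rose in HKC-8 and HepG2 cells, beside 11.2% and 19.9% of all genes tested. In RCC4+VHL cells all 8 that were tested rose, beside 25.9%. CA9 and EGLN3 had at most 6 and 7 counts a library there and were not tested. The list was chosen with earlier results of these data known, so it is not an independent check. The summed level of 7 liver markers was 24324 to 29308 CPM in HepG2 libraries and at most 11.2 CPM elsewhere. Of 7 renal tubule markers, 6 reached a mean of 1 CPM in RCC4+VHL cells and 2, PAX8 and CDH16, in HKC-8 cells, where PAX2 and LHX1 had at most 3 counts in every hypoxic sample. In HepG2 cells 3 of these markers, PAX8, CDH16 and GGT1, reached it, so their number did not set HKC-8 cells apart from the liver line. PAX8 was at 129 to 180.1 CPM in HKC-8 and 8.77 to 12.7 CPM in HepG2 cells. The sum of 4 mesenchymal markers was 1214 to 1479 CPM in normoxic and 1591 to 1772 CPM in hypoxic HKC-8 cells. It was 1842 to 1924 and 2748 to 2896 CPM in RCC4+VHL cells and 28.9 to 32.6 and 65.95 to 73.2 CPM in HepG2 cells. Most of it in the kidney lines was VIM, at 1197 to 1469, 1799 to 1875 and 2.26 to 2.90 CPM in normoxic HKC-8, RCC4+VHL and HepG2 cells. In the same order PDGFRB was at 4.62 to 10.0, 41.4 to 46.8 and 21.2 to 22.4 CPM. COL1A1 was at 5.41 to 7.12, 2.36 to 2.67 and 5.44 to 7.32 CPM, so neither was lowest in HepG2 cells. COL1A2 had 3 counts or fewer in every sample. The part of these markers in the results was not tested. Of 3 immune markers, CD3E had 0 counts in every sample and PTPRC at most 5. CD68 was at 5.41 to 14.1 CPM in the kidney lines and at 47.1 to 51.2 CPM in normoxic and 60.7 to 68.4 CPM in hypoxic HepG2 cells, and its part in the results was not tested.

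Of the 29 members 11, among them 9 synthesis enzymes, rose under hypoxia in HKC-8 cells and fell in HepG2 cells, as did 0.767% of the 12253 genes tested in both lines. INSIG2 was the only member that rose in all 3 lines, as 3.81% of 11418 genes did. In HKC-8 cells 17 of the 29 members rose and 1, SOAT1, fell, where 11.2% and 9.12% of the 13536 genes tested were called higher and lower (20.4% in all). With the replicate number as a block, which the main fit lacks, 21 members rose there and 1 fell. In HepG2 cells 4 members rose and 19 fell, beside 19.9% and 19.2% of 13623 genes (39.1% in all). In RCC4+VHL cells 5 rose and 11 fell, beside 25.9% and 24.2% of 12811 genes (50.1% in all). Calls were made at an adjusted p under 0.05 in edgeR's quasi-likelihood test, and log2 fold changes (log2FC) are hypoxia over normoxia with their standard error (SE). Values of single samples are given in order of replicate, normoxia before hypoxia. In bulk RNA, fewer cells of a kind and less RNA per cell cannot be told apart.

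The median log2FC of the members was 0.47 in HKC-8, -0.04 in RCC4+VHL and -0.41 in HepG2 cells, beside 0.00, 0.00 and 0.00 over all genes tested. Every hypoxic sample lay above every normoxic one for 21 members in HKC-8, 5 in RCC4+VHL and 5 in HepG2 cells, beside 19.7%, 28.2% and 24.6% of all tested genes. Every hypoxic sample lay below for 2, 9 and 19 members, beside 19.5%, 28.3% and 25.0%. The upward share in HKC-8 cells and the downward share in HepG2 cells stood farthest from their backgrounds.

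**Figure D1:**
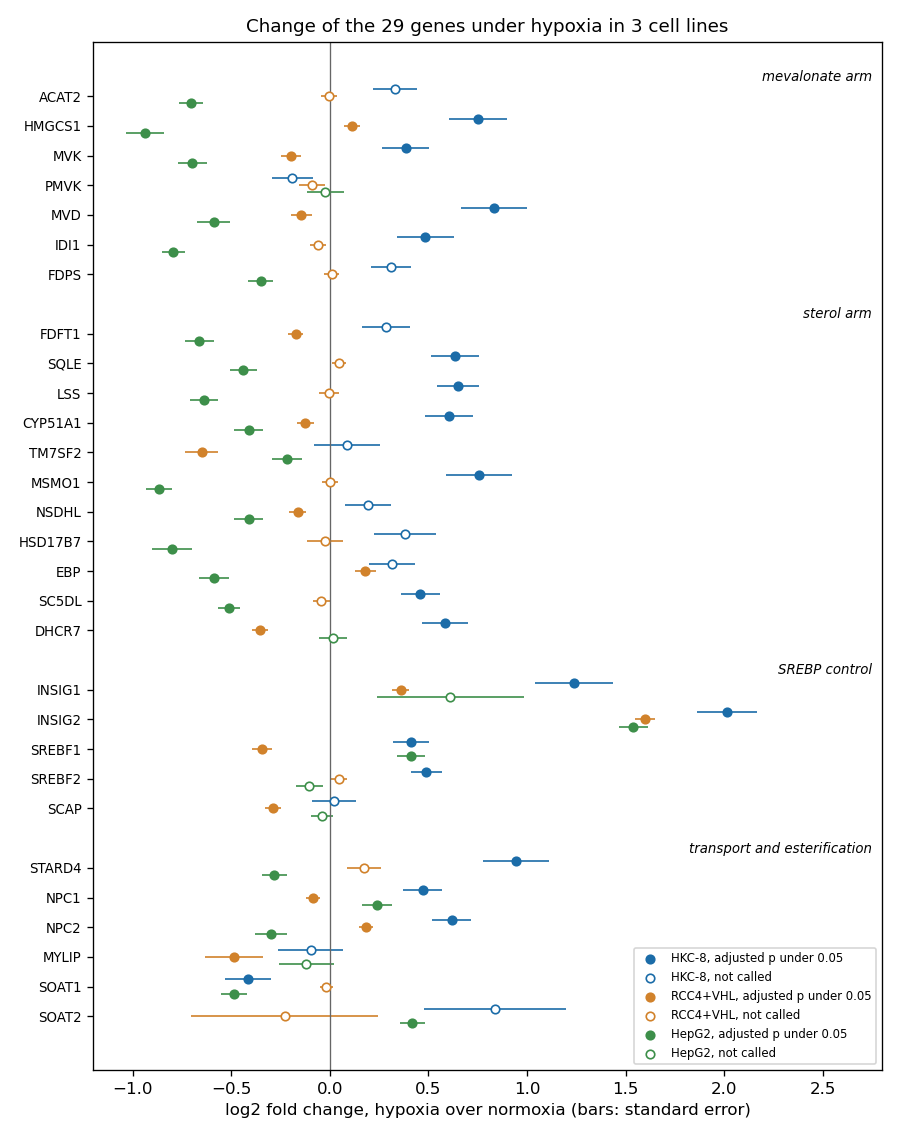
Log2 fold change of each member, hypoxia over normoxia with bars for the SE, in HKC-8, RCC4+VHL and HepG2 cells (3 against 3 samples a line), filled where the adjusted p was under 0.05. The HKC-8 value is above the HepG2 value for all members but PMVK and SREBF1, and INSIG2 is the only member with a filled point above 0 in all 3 lines.

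The HKC-8 counts depended on which libraries were fitted. Hypoxic replicate 1 held the highest value of its line for 13 of the 17 members that rose, among them HMGCS1, INSIG1, MSMO1 and STARD4. Without it 11 members were called higher, and 11 were without normoxic replicate 1. The fits with a library left out lack the replicate block. With the block and all libraries, every HKC-8 call held at a smaller adjusted p in the quasi-likelihood test. It was 0.000504 for HMGCS1, 8.96e-05 for MVD and 0.000479 for MSMO1. Of the HKC-8 calls, 9 of 18 held in all 12 alternative fits, namely SQLE, LSS, CYP51A1, DHCR7, INSIG1, INSIG2, SREBF2, STARD4 and NPC2. In HepG2 cells 19 of 23 held. Among the members that rose in HKC-8 and fell in HepG2 cells, only SQLE, LSS and CYP51A1 held both calls in all of these fits. In RCC4+VHL cells 5 of 16 held, namely INSIG2, TM7SF2, DHCR7, SREBF1 and SCAP. A fit of all 18 samples called 1 member higher and 4 lower there, which are the same genes. Every other RCC4+VHL call was thus lost in that fit. The biological coefficient of variation was 0.135 in HKC-8, 0.0437 in RCC4+VHL and 0.0733 in HepG2 cells.

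Promoters of 5 members are shown because these genes carry the main contrasts, namely the INSIG pair, SREBF2, and HMGCS1 and MSMO1, whose responses differed most between HKC-8 and HepG2 cells. Each run is the 250 bases before the RefSeq gene start on GRCh38.p14, 5′ to 3′ on the strand of the gene. They lie at chr2:118088221-118088470 (+) for INSIG2, chr7:155297628-155297877 (+) for INSIG1, chr22:41832855-41833104 (+) for SREBF2, chr5:43313413-43313662 (-) for HMGCS1 and chr4:165327419-165327668 (+) for MSMO1. Capitals mark matches on either strand to the sterol regulatory element TCACNCCAC, the NF-Y box CCAAT and the hypoxia response element cores ACGTG and GCGTG.
INSIG2: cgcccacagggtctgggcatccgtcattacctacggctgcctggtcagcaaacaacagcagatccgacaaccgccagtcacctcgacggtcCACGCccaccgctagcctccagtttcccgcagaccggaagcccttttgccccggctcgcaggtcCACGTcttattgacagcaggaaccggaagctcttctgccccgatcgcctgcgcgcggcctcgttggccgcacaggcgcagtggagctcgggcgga
INSIG1: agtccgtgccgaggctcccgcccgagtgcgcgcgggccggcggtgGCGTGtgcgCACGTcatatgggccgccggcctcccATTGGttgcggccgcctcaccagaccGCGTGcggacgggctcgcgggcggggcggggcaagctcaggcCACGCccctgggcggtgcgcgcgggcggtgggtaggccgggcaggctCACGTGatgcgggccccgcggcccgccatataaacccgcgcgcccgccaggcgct
SREBF2: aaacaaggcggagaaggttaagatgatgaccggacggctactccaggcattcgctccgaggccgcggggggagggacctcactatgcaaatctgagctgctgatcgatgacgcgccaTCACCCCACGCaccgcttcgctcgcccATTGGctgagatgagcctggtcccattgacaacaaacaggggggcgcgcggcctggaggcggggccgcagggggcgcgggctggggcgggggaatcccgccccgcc
HMGCS1: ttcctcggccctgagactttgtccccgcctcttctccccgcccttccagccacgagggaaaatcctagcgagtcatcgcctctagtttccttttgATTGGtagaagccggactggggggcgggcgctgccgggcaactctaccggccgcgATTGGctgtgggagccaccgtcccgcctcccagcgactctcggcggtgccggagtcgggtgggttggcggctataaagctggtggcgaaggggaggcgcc
MSMO1: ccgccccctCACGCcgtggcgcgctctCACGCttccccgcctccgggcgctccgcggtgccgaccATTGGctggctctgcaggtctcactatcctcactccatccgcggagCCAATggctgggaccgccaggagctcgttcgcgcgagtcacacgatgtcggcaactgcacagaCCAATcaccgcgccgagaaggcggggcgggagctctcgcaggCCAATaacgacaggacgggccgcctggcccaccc

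INSIG2 held 2 hypoxia response element cores, which begin 159 and 95 bases before the start, and no NF-Y box. INSIG1 held 6 cores, of which those at 55 and 54 lie in an E-box, CACGTG, and an NF-Y box at 170. SREBF2 held the sterol regulatory element, at 133, which overlaps a core at 127, and an NF-Y box at 106. HMGCS1 held NF-Y boxes at 155 and 100 and no core, and MSMO1 held 4 NF-Y boxes and 2 cores. These matches of letters are descriptions, not binding sites.

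RefSeq promoters from 250 bases before to 50 after the start were matched for 25 of the 29 members. An NF-Y box stood in 18 of them, 72% beside 35.7% of all 27305 promoters. A hypoxia response element core also stood in 18, 72% beside 48.4%. The E-box, which contains ACGTG on both strands and so also counts as a core, stood in LSS, SC5DL, INSIG1 and SCAP, 16% beside 7.43%. An exact match to TCACNCCAC stood in SREBF2 alone among these 25, 4% beside 1.15%. Other forms of the sterol regulatory element were not searched for, so the other members may hold one. ACAT2, FDFT1, SQLE and SOAT2 had no promoter to match. NF-Y is known as a partner of SREBPs at sterol genes.

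The INSIG genes encode the sterol-dependent brakes on SREBP transport. INSIG2 lies at chr2:118846028-118868573 (+) and INSIG1 at chr7:155089486-155101945 (+) on GRCh37, each with 6 exons in its reference transcript. INSIG2 was at 16.8, 13.5 and 17.5 CPM in normoxic and 76.3, 52.3 and 64.2 CPM in hypoxic HKC-8 cells (log2FC 2.02, SE 0.15, adjusted p = 6.63e-05). RCC4+VHL cells went from 21.4, 20.4 and 20.5 CPM to 62.6, 64.7 and 60.7 CPM (1.60, SE 0.05, adjusted p = 1.24e-17). HepG2 cells went from 110.4, 100.3 and 101 CPM to 335, 289 and 281 CPM (1.54, SE 0.07, adjusted p = 3.06e-09). Hypoxic and normoxic samples did not overlap in any line, and normoxic HepG2 samples held more INSIG2 than hypoxic samples of either kidney line. The INSIG2 response in HKC-8 minus that in HepG2 cells was 0.47 (95% interval 0.10 to 0.85, adjusted p = 0.111), which was called with the replicate number as a block (0.47, adjusted p = 0.00263).

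INSIG1, itself a classical SREBP target, rose in both kidney lines and was under 1 CPM in every HepG2 sample. HKC-8 cells held 82.3, 74.2 and 108 CPM in normoxia and 272, 159.9 and 189 CPM in hypoxia (log2FC 1.24, SE 0.20, adjusted p = 0.00403). RCC4+VHL cells held 135, 131 and 145 CPM and 177, 165 and 183 CPM (0.36, SE 0.04, adjusted p = 2.53e-07), with an adjusted p of 0.0859 in the fit of all 18 samples. HepG2 cells held 0.363, 0.179 and 0.310 CPM and 0.405, 0.434 and 0.466 CPM, which is 8 to 20 counts a library (0.61, SE 0.37, adjusted p = 0.219). The hypoxic HepG2 samples lay above the normoxic ones, but a change was not detectable at these counts. Normoxic HepG2 cells held 304-fold less INSIG1 than normoxic HKC-8 cells (log2 difference -8.25, adjusted p = 1.53e-13).

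Levels per length were computed as RPKM, the CPM divided by the kilobases of the reference transcript. INSIG2 made up 12.98% ± 1.29 (SD, n = 3) of the summed RPKM of both INSIG genes in normoxic and 20.5% ± 1.60 in hypoxic HKC-8 cells. Its share was 11.03% ± 0.576 and 22.7% ± 1.45 in RCC4+VHL cells. In HepG2 cells it was 99.7% ± 0.0990 and 99.8% ± 0.0278, so nearly all INSIG reads there were INSIG2. The sum of both genes was 34.7 ± 6.46 RPKM in normoxic HKC-8, 52.9 ± 2.37 in RCC4+VHL and 29.2 ± 1.63 in HepG2 cells. In hypoxia the sums were 89.3 ± 23.2, 77.8 ± 2.53 and 84.8 ± 8.16.

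SREBF1 and SREBF2 encode the SREBP precursors, and SREBF2 is the one chiefly tied to cholesterol synthesis. SREBF2 was at 162, 170.0 and 185 CPM in normoxic and 234, 239 and 251 CPM in hypoxic HKC-8 cells (log2FC 0.49, SE 0.08, adjusted p = 0.00436). It was at 167, 181 and 168 CPM and 189, 169 and 174 CPM in RCC4+VHL cells (0.05, SE 0.04, adjusted p = 0.376). In HepG2 cells it was at 148, 134 and 149.7 CPM and 137, 123 and 142 CPM (-0.10, SE 0.07, adjusted p = 0.245). The SREBF2 groups did not overlap in HKC-8 cells and overlapped in the other lines.

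SREBF1 rose in HKC-8 and HepG2 cells and fell in RCC4+VHL cells. It went from 73.6, 66.6 and 60.3 CPM to 88.5, 93.96 and 83.4 CPM in HKC-8 cells (log2FC 0.41, SE 0.09, adjusted p = 0.0147), a call lost without hypoxic replicate 1 (adjusted p = 0.0602). In HepG2 cells it went from 67.6, 61.8 and 65.9 CPM to 92.9, 78.6 and 88.4 CPM (0.41, SE 0.07, adjusted p = 0.000470). SREBF1 in RCC4+VHL cells went from 71.02, 78.3 and 67.3 CPM to 58.5, 56.5 and 55.2 CPM (-0.34, SE 0.05, adjusted p = 4.87e-06). The groups did not overlap in any line. SREBF1 overlaps RAI1 on the other strand, and the strand setting of the counting is not given in the sources used here. SCAP, the escort, fell in RCC4+VHL cells (-0.29, SE 0.04, adjusted p = 4.99e-06) and was at 0.02 in HKC-8 and -0.04 in HepG2 cells, with adjusted p = 0.913 and 0.592.

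The 7 enzymes of the mevalonate arm lead from acetyl-CoA to farnesyl diphosphate. In HKC-8 cells 4 of them rose, beside 11.2% of all genes tested, and in HepG2 cells 6 fell, beside 19.2%. In RCC4+VHL cells 1 rose and 2 fell, beside 25.9% and 24.2%. HMGCS1, the cytosolic HMG-CoA synthase, went from 202, 211 and 270.1 CPM to 457, 323 and 369.6 CPM in HKC-8 cells (log2FC 0.75, SE 0.15, adjusted p = 0.00911), a call lost without normoxic replicate 1 (adjusted p = 0.0509). In HepG2 cells HMGCS1 went from 236, 176 and 243 CPM to 119, 106 and 117 CPM (-0.94, SE 0.10, adjusted p = 7.64e-06), the lowest log2FC of any member in that line. RCC4+VHL cells held 102, 99.5 and 99.2 CPM and 110.3, 102 and 112 CPM (0.11, SE 0.04, adjusted p = 0.0239), a call lost without normoxic replicate 2 or 3 or hypoxic replicate 1 or 3 (adjusted p 0.0655 to 0.129). HMGCS1 thus separated hypoxic from normoxic samples upwards in HKC-8 and downwards in HepG2 cells.

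MVD, the mevalonate diphosphate decarboxylase, was at 24.2, 24.7 and 21.1 CPM in normoxic and 45.7, 48.3 and 29.9 CPM in hypoxic HKC-8 cells (log2FC 0.83, SE 0.17, adjusted p = 0.0103), a call lost without hypoxic replicate 1 (adjusted p = 0.0517). In HepG2 cells MVD went from 95.6, 82.3 and 86.9 CPM to 59.3, 51.9 and 64.9 CPM (-0.59, SE 0.08, adjusted p = 9.00e-05). MVD fell slightly in RCC4+VHL cells (-0.14, SE 0.05, adjusted p = 0.0269), a call lost without normoxic replicate 1 or 3 or hypoxic replicate 2 (adjusted p 0.0535 to 0.167). MVK, the mevalonate kinase, fell in HepG2 cells from 39.2, 35.9 and 37.1 CPM to 23.8, 21.5 and 23.9 CPM (-0.70, SE 0.07, adjusted p = 7.90e-06) and in RCC4+VHL cells (-0.20, SE 0.05, adjusted p = 0.00297). The RCC4+VHL call of MVK was lost in the fit of all 18 samples. In HKC-8 cells MVK was close to the threshold (0.38, SE 0.12, adjusted p = 0.0492), and the call was lost without normoxic replicate 1 or 2 or hypoxic replicate 1 or 2 (adjusted p 0.0776 to 0.190).

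IDI1, the isopentenyl diphosphate isomerase, fell in HepG2 cells from 183, 171 and 178 CPM to 107, 96.8 and 104 CPM (log2FC -0.79, SE 0.06, adjusted p = 2.93e-07). In HKC-8 cells IDI1 rose (0.48, SE 0.14, adjusted p = 0.0422), a call lost without normoxic replicate 1 or 2 or hypoxic replicate 1 (adjusted p 0.110 to 0.125). ACAT2, which makes acetoacetyl-CoA, fell in HepG2 cells from 245, 236 and 220.4 CPM to 143, 138 and 150.2 CPM (-0.70, SE 0.06, adjusted p = 1.53e-06). FDPS, the farnesyl diphosphate synthase, fell there too (-0.35, SE 0.06, adjusted p = 0.000666). In HKC-8 cells ACAT2 was at 0.33 (adjusted p = 0.0644) and FDPS at 0.31 (adjusted p = 0.0598), and the replicate block called both (adjusted p = 0.0213 and 0.0138). PMVK, the next kinase after MVK, was the only member called in no line, at -0.19, -0.09 and -0.02 in HKC-8, RCC4+VHL and HepG2 cells. ACAT2 and MVK overlap genes on the other strand, and FDPS and IDI1 have 8 and 3 named pseudogenes that could share reads with them.

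The 11 enzymes of the sterol arm make squalene, close it to lanosterol and trim lanosterol to cholesterol. In HKC-8 cells 6 rose, beside 11.2% of all genes tested, and in HepG2 cells 10 fell, beside 19.2%. In RCC4+VHL cells 1 rose and 5 fell, beside 25.9% and 24.2%. Over both arms, 10 of 18 enzymes rose and 0 fell in HKC-8 cells, and 0 rose and 16 fell in HepG2 cells. With edgeR the counts of 0 were also 0 at an unadjusted p under 0.05, and with DESeq2 they were 0 on both scales. The 4 oxygen-using enzymes, SQLE, CYP51A1, MSMO1 and SC5DL, all rose in HKC-8 cells (median log2FC 0.62, beside 0.42 over the 18 enzymes) and all fell in HepG2 cells (median -0.48, beside -0.59).

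SQLE, the squalene epoxidase, was at 102, 90.4 and 98.1 CPM in normoxic and 181, 131 and 138 CPM in hypoxic HKC-8 cells (log2FC 0.63, SE 0.12, adjusted p = 0.00824). In HepG2 cells SQLE fell (-0.44, SE 0.07, adjusted p = 0.000212), and in RCC4+VHL cells it was not called (0.05, SE 0.04, adjusted p = 0.303). MSMO1, the sterol methyl oxidase, was at 123, 109 and 143 CPM and 270.0, 171 and 191 CPM in HKC-8 cells (0.76, SE 0.17, adjusted p = 0.0145), a call lost without normoxic replicate 1 (adjusted p = 0.0663). Hypoxic replicate 1 was the highest HKC-8 sample for both genes, and neither gene's groups overlapped. In HepG2 cells MSMO1 went from 269, 259.5 and 243 CPM to 146, 132 and 145 CPM (-0.87, SE 0.06, adjusted p = 2.53e-07). MSMO1 in RCC4+VHL cells was at 182, 174 and 196 CPM and 179, 178 and 192 CPM (0.00, SE 0.04, 95% interval -0.09 to 0.09).

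CYP51A1, the lanosterol demethylase, was at 218, 204 and 219 CPM in normoxic and 392, 281 and 298 CPM in hypoxic HKC-8 cells (log2FC 0.60, SE 0.12, adjusted p = 0.0104). It fell in HepG2 cells (-0.41, SE 0.07, adjusted p = 0.000608). CYP51A1 overlaps AKAP9 on the other strand and has 3 named pseudogenes. CYP51A1 fell slightly in RCC4+VHL cells (-0.12, SE 0.04, adjusted p = 0.0168), a call lost without normoxic replicate 3 or hypoxic replicate 1 or 2 (adjusted p 0.0613 to 0.0952). SC5DL, the sterol desaturase now named SC5D, fell in HepG2 cells from 141, 134 and 144 CPM to 98.8, 96.1 and 98.9 CPM (-0.51, SE 0.06, adjusted p = 1.02e-05). In HKC-8 cells SC5DL rose (0.46, SE 0.10, adjusted p = 0.0134), a call lost without normoxic replicate 1 or hypoxic replicate 1 (adjusted p 0.0542 to 0.0565). Each of the 4 oxygen-using enzymes thus moved in opposite directions in HKC-8 and HepG2 cells.

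LSS, the lanosterol synthase, needs no oxygen. It was at 103, 109 and 105 CPM in normoxic and 182, 177 and 138 CPM in hypoxic HKC-8 cells (log2FC 0.65, SE 0.11, adjusted p = 0.00431). In HepG2 cells LSS went from 128, 113 and 121 CPM to 79.7, 70.7 and 82.1 CPM (-0.64, SE 0.07, adjusted p = 1.16e-05), and the groups of neither line overlapped. FDFT1, the squalene synthase, fell in HepG2 cells from 408, 346 and 374 CPM to 249, 216 and 249 CPM (-0.66, SE 0.07, adjusted p = 1.41e-05). FDFT1 also fell in RCC4+VHL cells (-0.17, SE 0.04, adjusted p = 0.000630), a call lost in the fit of all 18 samples. It was not called in HKC-8 cells (0.28, SE 0.12, adjusted p = 0.131).

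HSD17B7, a sterol ketoreductase, went from 31.9, 30.1 and 25.3 CPM to 17.98, 15.2 and 16.97 CPM in HepG2 cells (log2FC -0.80, SE 0.10, adjusted p = 3.53e-05), and 2 named pseudogenes could share its reads. EBP, the sterol isomerase, went from 70.7, 65.3 and 59.3 CPM to 43.3, 40.8 and 45.8 CPM there (-0.59, SE 0.08, adjusted p = 4.80e-05). In HKC-8 cells HSD17B7 was at 0.38 (adjusted p = 0.120) and EBP at 0.31 (adjusted p = 0.0850), and the replicate block called both (adjusted p = 0.0283 and 0.0222). EBP rose in RCC4+VHL cells (0.18, SE 0.05, adjusted p = 0.00584), a call lost without normoxic replicate 1 (adjusted p = 0.0763) and in the fit of all 18 samples. NSDHL, a sterol decarboxylating dehydrogenase, fell in HepG2 (-0.41, SE 0.07, adjusted p = 0.000751) and RCC4+VHL cells (-0.16, SE 0.04, adjusted p = 0.00246) and was not called in HKC-8 cells (0.19, SE 0.12, adjusted p = 0.265). Its RCC4+VHL call was lost in the fit of all 18 samples.

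DHCR7 and TM7SF2 encode sterol reductases, and TM7SF2 overlaps VPS51 on the same strand. DHCR7 was at 130.2, 132 and 117 CPM in normoxic and 215, 197 and 156 CPM in hypoxic HKC-8 cells (log2FC 0.59, SE 0.12, adjusted p = 0.00987). DHCR7 fell in RCC4+VHL cells (-0.35, SE 0.04, adjusted p = 1.35e-07), and in HepG2 cells it was at 0.02 (95% interval -0.14 to 0.17). TM7SF2 had the lowest log2FC of any member in RCC4+VHL cells, from 15.6, 15.6 and 18.8 CPM to 10.1, 10.6 and 10.9 CPM (-0.65, SE 0.08, adjusted p = 9.26e-07). Its fall in HepG2 cells (-0.22, SE 0.08, adjusted p = 0.0373) was lost without normoxic replicate 1 or 2 or hypoxic replicate 1, 2 or 3 (adjusted p 0.0560 to 0.142), and in HKC-8 cells it was not called (0.09, SE 0.17, adjusted p = 0.754).

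Summed over the 18 enzymes, the level was 1839, 1839 and 2056 CPM in normoxic and 3181, 2525 and 2422 CPM in hypoxic HKC-8 cells. In HepG2 cells the sums were 2745, 2436 and 2608 CPM in normoxia and 1788, 1636 and 1819 CPM in hypoxia. In RCC4+VHL cells they were 1991, 1999 and 2127 CPM and 1897, 1847 and 1984 CPM. Among normoxic samples those of HepG2 cells had the highest sums, and hypoxic HepG2 samples had the lowest sums of all 18. These sums are descriptions with no test.

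Of the 6 genes of sterol transport, receptor turnover and esterification, 3 rose and 1 fell in HKC-8 cells, beside 11.2% and 9.12% of all genes tested. STARD4, a cytosolic sterol carrier, was at 30.1, 24.3 and 30.7 CPM in normoxic and 69.4, 43.4 and 50.5 CPM in hypoxic HKC-8 cells (log2FC 0.94, SE 0.17, adjusted p = 0.00622). STARD4 fell in HepG2 cells (-0.28, SE 0.07, adjusted p = 0.00404), with an adjusted p of 0.109 in the fit of all 18 samples, and was not called in RCC4+VHL cells (0.17, SE 0.09, adjusted p = 0.0995). NPC2, which hands cholesterol to NPC1 in the lysosome, was at 40.3, 46.4 and 51.7 CPM and 69.6, 70.9 and 71.4 CPM in HKC-8 cells (0.62, SE 0.10, adjusted p = 0.00377). NPC2 rose in RCC4+VHL cells (0.18, SE 0.04, adjusted p = 0.000195), a call lost in the fit of all 18 samples. In HepG2 cells NPC2 fell (-0.30, SE 0.08, adjusted p = 0.0102), a call lost without hypoxic replicate 2 (adjusted p = 0.0597).

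NPC1, which exports cholesterol from the lysosome, rose in HKC-8 cells (log2FC 0.47, SE 0.10, adjusted p = 0.0122), a call lost without normoxic replicate 1 or hypoxic replicate 1 (adjusted p 0.0512 to 0.0569). NPC1 also rose in HepG2 cells (0.24, SE 0.07, adjusted p = 0.0223), a call lost without normoxic replicate 1 or 2 or hypoxic replicate 1 or 3 (adjusted p 0.0607 to 0.0987). NPC1 fell slightly in RCC4+VHL cells (-0.09, SE 0.04, adjusted p = 0.0471), a call lost without normoxic replicate 1 or 3 or hypoxic replicate 1 or 2 (adjusted p 0.0742 to 0.172). With 1 library left out the NPC1 log2FC was 0.36 to 0.55 in HKC-8, 0.17 to 0.32 in HepG2 and -0.12 to -0.06 in RCC4+VHL cells. NPC1 overlaps RMC1 and NPC2 overlaps ISCA2, each on the other strand. MYLIP, a ubiquitin ligase gene switched on by the sterol-sensing LXR receptors, fell in RCC4+VHL cells (-0.48, SE 0.15, adjusted p = 0.00821), a call lost without normoxic replicate 1 (adjusted p = 0.0572), and was not called in HKC-8 (-0.10, SE 0.17, adjusted p = 0.715) or HepG2 cells (-0.12, SE 0.14, adjusted p = 0.535).

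SOAT1 and SOAT2 encode the enzymes that store cholesterol as esters, SOAT2 chiefly in liver and intestine. SOAT1 was at 189, 183 and 145 CPM in normoxic and 132, 139.6 and 116 CPM in hypoxic HKC-8 cells (log2FC -0.42, SE 0.12, adjusted p = 0.0345), a call lost without normoxic replicate 1 or 2 or hypoxic replicate 1 or 3 (adjusted p 0.0966 to 0.137). In HepG2 cells SOAT1 went from 92.5, 84.7 and 99.7 CPM to 64.3, 66.4 and 66.9 CPM (-0.49, SE 0.06, adjusted p = 6.42e-05). RCC4+VHL cells held 269, 263 and 272 CPM and 258, 264 and 268 CPM (-0.02, SE 0.03, adjusted p = 0.659). SOAT2 rose in HepG2 cells from 34.2, 34.04 and 32.6 CPM to 44.4, 46.2 and 44.2 CPM (0.42, SE 0.06, adjusted p = 0.000211), so the paralogs moved in opposite directions there. SOAT2 was at 0.324, 0.407 and 0.418 CPM and 0.614, 0.992 and 0.436 CPM in HKC-8 cells (0.84, SE 0.36, adjusted p = 0.130). It was at 0.435, 0.199 and 0.304 CPM and 0.247, 0.340 and 0.207 CPM in RCC4+VHL cells (-0.23, SE 0.48, adjusted p = 0.719).

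Whether the response itself differed was tested between HKC-8 and HepG2 cells, the lines with the same oxygen level and time in the sample characteristics. The log2FC was higher in HKC-8 than in HepG2 cells for 19 of the 29 members and lower for 0, where 4.28% and 5.02% of the 15046 genes tested were called (9.3% in all). By edgeR no member was lower at an unadjusted p under 0.05, and by DESeq2 the count was 0 with or without adjustment. The members called were 16 of the 18 enzymes, SREBF2, STARD4 and NPC2. The median difference was 0.90 over the members, beside 0.00 over all genes. The test uses the same samples as the changes within each line. RCC4+VHL cells were left out since their sample characteristics state a different hypoxia. By title, however, hypoxia was at 0.1 in HKC-8 and 0.5 in HepG2 cells, so a shared oxygen level is uncertain. The part of oxygen level in the differences was not tested.

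The largest differences were those of HMGCS1 (1.69, 95% interval 1.26 to 2.12, adjusted p = 9.22e-05) and MSMO1 (1.62, 95% interval 1.21 to 2.03, adjusted p = 9.22e-05). The median was 1.04 over the 4 oxygen-using enzymes and 1.02 over all 18 enzymes. PMVK and TM7SF2 were the enzymes without a call, at -0.17 (95% interval -0.47 to 0.12) and 0.30 (95% interval -0.11 to 0.72). The call of NSDHL (0.60, SE 0.15, adjusted p = 0.0184) was lost without hypoxic HKC-8 replicate 1, normoxic HepG2 replicate 1 or hypoxic HepG2 replicate 2 (adjusted p 0.0518 to 0.0540). The call of DHCR7 (0.57, SE 0.15, adjusted p = 0.0271) was lost without hypoxic HKC-8 replicate 1, normoxic HepG2 replicate 1 or 3 or hypoxic HepG2 replicate 2 (adjusted p 0.0523 to 0.0758). SREBF2 differed by 0.59 (95% interval 0.36 to 0.82, adjusted p = 0.00300), whereas SREBF1 was at 0.00 (95% interval -0.26 to 0.26).

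In normoxia the lines differed in most members, as in most genes. Of the 29 members, 20 differed between RCC4+VHL and HKC-8 cells, 24 between HepG2 and HKC-8 and 24 between HepG2 and RCC4+VHL, beside 80.8%, 83.0% and 83.3% of the 14806 genes tested, so the members stood near or below the background. RCC4+VHL cells were higher than HKC-8 cells for 13 members and lower for 7, beside 39.4% and 41.4% of genes. HepG2 cells were higher than HKC-8 cells for 19 and lower for 5, beside 42.6% and 40.5%. They were higher than RCC4+VHL cells for 16 and lower for 8, beside 45.3% and 38.1%. These contrasts share normoxic samples. In RPKM, the highest member was FDPS in HKC-8 (130.1 ± 14.4, SD, n = 3), NPC2 in RCC4+VHL (218 ± 6.80) and FDFT1 in HepG2 cells (185 ± 15.2). The lowest was SOAT2 in HKC-8 (0.185 ± 0.0248) and RCC4+VHL cells (0.151 ± 0.0570) and INSIG1 in HepG2 cells (0.0977 ± 0.0325).

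SOAT2 was 88.4-fold and INSIG2 6.60-fold higher in normoxic HepG2 than in normoxic HKC-8 cells (adjusted p = 3.31e-13 and 6.02e-12). Of the 18 enzymes, 13 were higher in HepG2 than in HKC-8 cells, among them MVD (3.84-fold), TM7SF2 (2.54-fold) and SQLE (2.44-fold), and 1, PMVK, was lower. Over all genes tested 42.6% were higher and 40.5% lower. The lysosomal genes NPC1 and NPC2 were 6.68-fold and 3.90-fold higher in RCC4+VHL than in HKC-8 cells (adjusted p = 1.50e-12 and 3.44e-10). RCC4+VHL cells held 2.26-fold less HMGCS1 and 2.39-fold less STARD4 than HKC-8 cells (adjusted p = 7.55e-07 and 6.41e-08). SREBF1 differed in none of these contrasts, with log2 differences of -0.14 to 0.12.

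**Figure D2:**
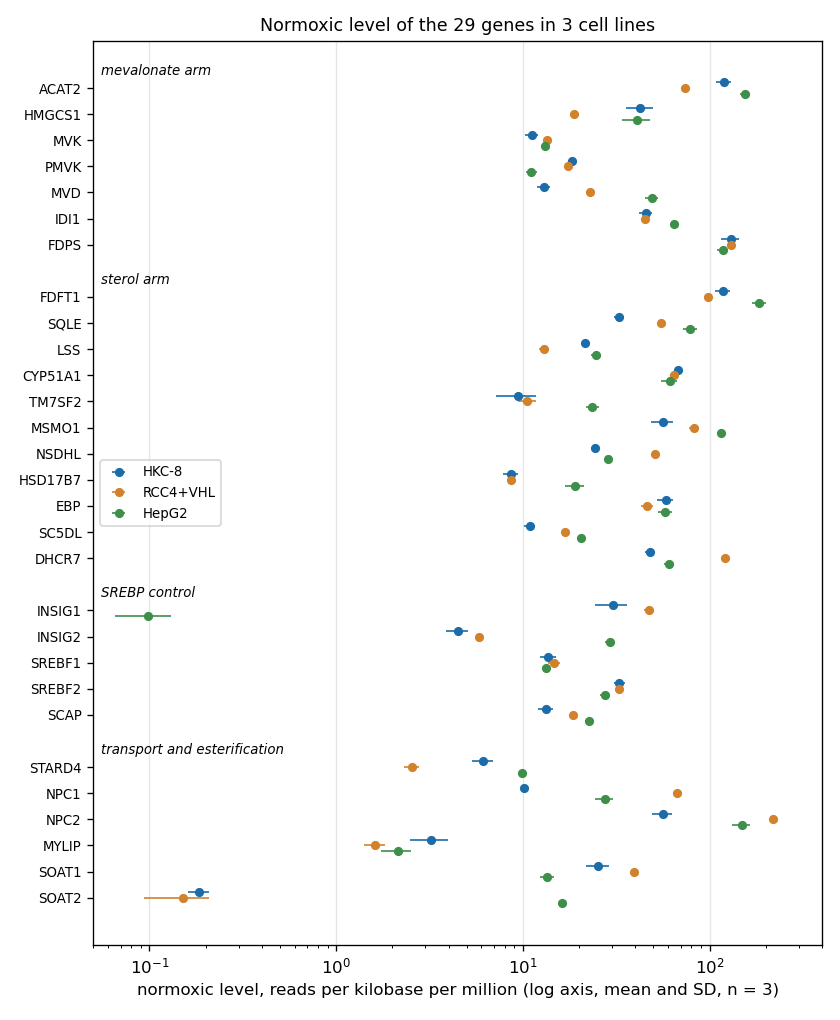
Normoxic level of each member in RPKM (log axis) in HKC-8, RCC4+VHL and HepG2 cells, as the mean and SD of 3 samples. INSIG1 in HepG2 cells and SOAT2 in both kidney lines lie far below the other points.

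Of 24 neighbouring genes, which cover SREBP proteases, LXR receptors and their targets, ubiquitin ligases and isoprenoid enzymes, 23 were tested. Over all genes tested 11.2% rose and 9.12% fell in HKC-8, 25.9% and 24.2% in RCC4+VHL and 19.9% and 19.2% in HepG2 cells. Of the neighbouring genes 2 rose and 3 fell in HKC-8, 4 and 9 in RCC4+VHL and 4 and 6 in HepG2 cells. Their median log2FC was 0.01, -0.08 and 0.02. RNF145, a ubiquitin ligase of the endoplasmic reticulum, was the only one past a log2FC of 1 in size. It went from 166, 162 and 164 CPM to 70.8, 89.7 and 83.3 CPM in HKC-8 cells (-1.01, SE 0.09, adjusted p = 0.000232) and rose slightly in RCC4+VHL (0.17, SE 0.04, adjusted p = 0.000456) and HepG2 cells (0.18, SE 0.06, adjusted p = 0.0324). ABCA1, an LXR target that exports cholesterol, is named after its values were seen, because it rose in all 3 lines. Its log2FC was 0.79 in HKC-8 (adjusted p = 0.00456), 0.99 in RCC4+VHL (adjusted p = 1.35e-13) and 0.31 in HepG2 cells (adjusted p = 0.00437).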

How the data were processed

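Gene counts were deposited for each of the 18 samples. Per the labels and the study's methods, the authors trimmed reads with Trim Galore 0.3.3, aligned them to GRCh37 with TopHat2 2.0.8b and Bowtie 1.0.0, kept uniquely mapped reads with SAMtools 0.1.19 and counted them per UCSC gene with HTSeq 0.5.4p3. The deposited counts were tested with edgeR 4.0.16 (R 4.3.3): TMM scaling, filterByExpr, the quasi-likelihood test and Benjamini-Hochberg adjustment over all genes tested. Each line was fitted apart, the difference between responses on 12 samples and the normoxic lines on 9. The SE is the absolute log2 fold change over the square root of F. CPM use 1 TMM scale over 18 samples. The members, the gene lists and the motifs were chosen with earlier results of these data known. All 29 members are named, with every sample's value where a called log2 fold change reached 0.5 in size and for the paralog pairs. Neighbouring genes are named from a called log2 fold change of 1. As alternatives, DESeq2 1.42.0 or its size factors were used, the filter on low counts was dropped or set to 10 counts in all samples, the replicate number was added as a block, all 18 samples were fitted at once, and each library was left out. Deviations of same-numbered samples correlated at 0.109 to 0.453 in HKC-8 cells, beside -0.469 to 0.116 for samples of unlike number. In RCC4+VHL cells these values were -0.0103 to 0.0333, beside -0.0393 to 0.0238. In HepG2 cells they were 0.0617 to 0.184, beside -0.162 to 0.0234. HKC-8 cells alone were taken as paired, although the main fits have no block, and a pairing in HepG2 cells is uncertain. With the block the HepG2 counts were again 4 members higher and 19 lower. Positions are on GRCh37 and promoters from RefSeq on GRCh38.p14.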

Additional observations from a re-analysis of the deposited data

Results flagged for a closer look

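The 19 members whose log2 fold change under hypoxia differed between HKC-8 and HepG2 cells in edgeR's quasi-likelihood test of the difference were picked out for that difference, and all of them were higher in HKC-8 cells. The difference in log2 fold change, HKC-8 minus HepG2, was 1.69 for HMGCS1, 1.62 for MSMO1, 1.42 for MVD, 1.29 for LSS, 1.27 for IDI1, 1.22 for STARD4, 1.18 for HSD17B7, 1.08 for MVK, 1.07 for SQLE, 1.03 for ACAT2, 1.01 for CYP51A1, 0.97 for SC5DL, 0.94 for FDFT1, 0.91 for NPC2, 0.90 for EBP, 0.66 for FDPS, 0.60 for NSDHL, 0.59 for SREBF2 and 0.57 for DHCR7. The HKC-8 libraries were deeper than the HepG2 libraries, and the labels state a split over sequencing lanes for the HKC-8 samples alone. The part of depth or of that split in these differences thus cannot be told apart from that of the cell line. Hypoxia was at 0.5% oxygen in both lines by the sample characteristics, but by title at 0.1 in HKC-8 and 0.5 in HepG2 cells. The part of oxygen level in these differences was not tested.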

How the results depend on the processing

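Of 1967 values recomputed under the alternatives, 1841 kept their direction and their side of the threshold. From the normoxic contrasts only called members with a log2 difference of at least 1 in size were counted. All 90, 149 and 164 of these values kept theirs, which this selection favours. Of the others, 309 of 348 did in HKC-8, 304 of 348 in RCC4+VHL and 330 of 347 in HepG2 cells. For the difference between HKC-8 and HepG2 cells 495 of 521 did. Leaving out each library in turn gave 11 to 19 members higher and 0 to 1 lower in HKC-8 cells, with 0 lower without normoxic replicate 1 or 2 or hypoxic replicate 1 or 3. The fit of all 18 samples called 1 member higher and 4 lower in RCC4+VHL cells, and the cause was not tested. With the replicate block, 21 members were higher and 1 lower in HKC-8 cells. Signs of values near 0 turned. MSMO1 in RCC4+VHL cells was at -0.0019 with DESeq2, -0.0018 with its size factors and -0.0050 in the fit of all 18 samples. The SREBF1 difference between HKC-8 and HepG2 cells was 0.019 with at least 10 counts in every sample and 0.0017 with the replicate block. With libraries left out, log2 fold changes that changed sign ranged in HKC-8 cells over TM7SF2 -0.051 to 0.29, SCAP -0.094 to 0.077, MYLIP -0.23 to 0.096. In RCC4+VHL cells they ranged over ACAT2 -0.035 to 0.037, FDPS -0.023 to 0.034, LSS -0.054 to 0.048, MSMO1 -0.042 to 0.046, HSD17B7 -0.10 to 0.094, SREBF2 -0.0012 to 0.081, SOAT2 -0.48 to 0.093. In HepG2 cells they ranged over PMVK -0.082 to 0.026, DHCR7 -0.028 to 0.086, MYLIP -0.24 to 0.0089. Differences between HKC-8 and HepG2 cells ranged over SREBF1 -0.063 to 0.071, SCAP -0.044 to 0.12, MYLIP -0.12 to 0.25, SOAT1 -0.012 to 0.14. INSIG1 had 8 to 20 counts a library in HepG2 cells, which limits the precision of its change there, while RCC4+VHL libraries of similar depth held 6178 to 8823.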

Other observations

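PAXIP1 and RBM33, genes of the same stretch of chromosome 7 as INSIG1, were transcribed in normoxic HepG2 cells, where INSIG1 was under 1 CPM. PAXIP1 was at 23.5 to 26.3 CPM there, beside 49.1 to 51.6 CPM in HKC-8 and 39.6 to 40.96 CPM in RCC4+VHL cells. RBM33 was at 50.7 to 54.7 CPM, beside 64.3 to 70.7 CPM and 35.8 to 38.7 CPM. Of the other genes of that stretch in the count files, HTR5A, EN2 and CNPY1 had 0 counts in every HepG2 sample, DPP6 was at 0.0955 to 0.136 CPM and SHH at 0.806 to 1.15 CPM in normoxic HepG2 cells. HTR5A had 0 counts in every sample of the other lines too, and EN2 was at 6.40 to 7.11 CPM in normoxic RCC4+VHL cells and at 0 in HKC-8 cells. The stretch was chosen after the values of INSIG1 were seen.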
